A study of Mus musculus with 48 samples.

Results

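The 45 genes described here drive or carry out cell division: cyclins, cyclin-dependent kinases (CDKs) and their inhibitors, E2F transcription factors, pocket proteins, DNA replication and nucleotide synthesis genes, CDC25 phosphatases, mitotic genes and proliferation markers. They were taken from a list of gene symbols that applied no threshold on measured values but was drawn up with earlier results of these data known, and all 45 were found among the 47480 symbols of both count tables. Their levels were compared between the stages of muscle differentiation and between stretched and non-stretched cells at each of 3 time points.

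The study sequenced RNA from C2C12 cells, a mouse skeletal muscle line, in 48 libraries that fall into 12 groups of 4. The sample labels call the molecule nuclear RNA, whereas the study's methods describe RNA of whole cells, so which of these the levels stand for is not settled. Undifferentiated myoblasts and cells taken through several days of differentiation in low-serum medium (differentiated cells, which the labels call myotubes) were each kept still or stretched, and RNA was taken after 1 h, after 3 h or after 6 h. Stretching was cyclic and equal in all directions in the plane of a flexible, collagen-coated membrane, and the non-stretched cells sat on the same plates. All groups carry the same unmodified line and no drug or transgene, and the study asked how stretching changes gene expression at each stage. In myoblasts and in differentiated cells, replicates 7 and 8 carry one code in their labels and replicates 9 and 10 another, and these codes were read as experiments. The study's methods describe 3 independent experiments for the differentiated samples, which the codes show only in the 1 h stretched group. The differentiated 1 h stretched group held replicates 4, 7, 8 and 9, and its replicate 4 was alone in its experiment. The experiment code of stretched myoblast replicate 9 at 1 h was read as a misprint. The labels do not say that the libraries of one experiment came from separate cultures, so the p-values measure the spread between these libraries, which may be partly technical.

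Cells divide when cyclins bind and activate CDKs. In G1, cyclin D with CDK4 or CDK6 and cyclin E with CDK2 phosphorylate the pocket proteins, which releases E2F factors and turns on genes for DNA replication. Late in the cycle, cyclin B with CDK1 drives mitosis after CDC25 phosphatases remove inhibitory phosphates. When myoblasts differentiate they leave the cycle for good, and the CDK inhibitor Cdkn1a and the pocket protein Rb1 are known for holding them out of it.

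Library totals ran from 48447318 to 77080730 estimated counts, and every member was read at least 74 times in each myoblast library (lowest for Cdkn1c) and at least 159 times in each differentiated one (lowest for Cdc25c). Levels are given as CPM, the gene's estimated counts scaled to a common library size by edgeR's cpm function, jointly over all 48 libraries. The stage labels matched the muscle markers: the 10 measured genes of a differentiated muscle list (Myog, Ckm, Acta1, Myh3 and others) summed to between 9.03 and 21.1 CPM in every myoblast library and to at least 14160 CPM in every differentiated one. The undifferentiated markers (Pax7, Myf5, Myod1, Id1, Id2 and Id3) were read in both stages and did not all fall. In non-stretched cells, 4 of these 6 were lower and 2 higher in differentiated cells at an adjusted p-value under 0.05. Median CPM went from 27.1 in myoblasts to 32.2 in differentiated cells for Pax7 and from 102.3 to 164.6 for Myod1. It went from 45.3 to 21.5 for Myf5 and from 113.8 to 14.0 for Id3. Of the other cell types, Pecam1, Ptprc and Epcam had at most 9, 7 and 4 counts in a library, while Cd68 had a median of 1.16 CPM in myoblasts and Cdh1 a median of 13.0 CPM in differentiated cells.

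Promoter windows, from 250 bases before to 50 bases after a transcript start, were read from RefSeq (GRCm38.p6) for 36 of the 45 members. Ccnd1, Ccnd2, Ccne2, Ccna2, Cdkn1c, Rb1, Mcm4, Cdc25c and Aurkb had no window in the table. Short stretches of 3 kinds were searched on both strands: the E2F letters TTTCCCGC, TTTGGCGC, TTTCGCGC and TTTGCCGC, the CHR letters TTTGAA and TTCGAA (CHR stands for cell cycle genes homology region, an element known from mitotic genes), and CCAAT. E2F letters were found for 13 of 36 members (36.1%), against 2.26% of all 32851 promoter windows. CHR letters were found for 15 of 36 (41.7%), against 19.2% of all windows, and CCAAT for 26 of 36 (72.2%), against 37.4%. Some members had more than 1 window and were counted once if any window held the letters (42 windows in all). The members' shares are therefore per gene and those of all promoters per window, so the 2 are not on the same unit. Hits of different kinds overlapped in 1 window. Among the 8 replication genes with a window, 6 held E2F letters (Cdc6, Cdt1, Mcm3, Mcm5, Mcm6 and Mcm7) and 2 held CHR letters. Among the 4 mitotic kinase and APC/C genes with a window (Aurka, Bub1, Cdc20 and Plk1), 0 held E2F letters and 4 held CHR letters.

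The windows of 6 members are shown because the results turn on these genes, with the matched letters on either strand in capitals. Cdt1 and Cdc6 hold E2F letters and load the replicative helicase onto DNA. E2f8 and Cdc25b hold CHR letters, Ccnb1 holds only CCAAT, and so does Cdkn1b. The windows are at chr8:122567765-122568064 (plus strand), chr11:98907901-98908200 (plus), chr7:48881547-48881846 (minus), chr2:131186698-131186997 (plus), chr13:100786437-100786736 (minus) and chr6:134920151-134920450 (plus). A match describes these letters only and shows no binding.
Cdt1: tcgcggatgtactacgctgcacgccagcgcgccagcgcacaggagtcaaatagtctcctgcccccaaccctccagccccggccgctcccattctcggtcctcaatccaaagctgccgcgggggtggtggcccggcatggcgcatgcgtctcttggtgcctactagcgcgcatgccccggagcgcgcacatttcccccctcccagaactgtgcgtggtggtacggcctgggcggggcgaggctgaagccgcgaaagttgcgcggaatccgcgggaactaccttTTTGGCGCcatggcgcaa
Cdc6: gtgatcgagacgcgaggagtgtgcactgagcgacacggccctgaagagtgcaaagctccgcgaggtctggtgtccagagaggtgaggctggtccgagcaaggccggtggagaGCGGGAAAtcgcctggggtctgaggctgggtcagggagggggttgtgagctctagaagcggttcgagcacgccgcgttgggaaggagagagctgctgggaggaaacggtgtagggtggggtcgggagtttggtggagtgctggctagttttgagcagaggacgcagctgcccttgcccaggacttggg
E2f8: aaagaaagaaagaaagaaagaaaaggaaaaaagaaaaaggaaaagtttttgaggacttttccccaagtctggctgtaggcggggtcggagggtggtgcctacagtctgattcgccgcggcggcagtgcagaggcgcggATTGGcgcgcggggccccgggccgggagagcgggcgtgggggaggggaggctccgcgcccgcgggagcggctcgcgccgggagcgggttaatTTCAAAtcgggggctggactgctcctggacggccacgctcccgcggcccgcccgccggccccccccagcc
Cdc25b: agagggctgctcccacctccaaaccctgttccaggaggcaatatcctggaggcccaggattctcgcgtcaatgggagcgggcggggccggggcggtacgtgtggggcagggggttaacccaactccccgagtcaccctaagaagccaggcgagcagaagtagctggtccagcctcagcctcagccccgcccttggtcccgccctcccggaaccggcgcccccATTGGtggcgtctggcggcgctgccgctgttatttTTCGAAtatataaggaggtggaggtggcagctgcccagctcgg
Ccnb1: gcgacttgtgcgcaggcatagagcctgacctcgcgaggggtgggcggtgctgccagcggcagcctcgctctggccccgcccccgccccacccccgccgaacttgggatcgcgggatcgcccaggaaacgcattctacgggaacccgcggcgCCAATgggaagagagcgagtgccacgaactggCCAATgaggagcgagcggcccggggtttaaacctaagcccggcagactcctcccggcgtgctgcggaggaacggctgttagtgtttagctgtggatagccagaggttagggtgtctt
Cdkn1b: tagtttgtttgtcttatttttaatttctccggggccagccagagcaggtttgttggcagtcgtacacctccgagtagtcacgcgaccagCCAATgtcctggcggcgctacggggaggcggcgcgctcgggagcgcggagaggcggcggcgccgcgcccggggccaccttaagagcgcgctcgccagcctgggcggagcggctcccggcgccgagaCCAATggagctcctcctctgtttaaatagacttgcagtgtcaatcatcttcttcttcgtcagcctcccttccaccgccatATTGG

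Most of the members were expressed at much lower levels in differentiated cells. In non-stretched cells, 38 of the 45 were lower and 7 were higher in differentiated cells than in myoblasts at an adjusted p-value under 0.05 (edgeR quasi-likelihood test with Benjamini-Hochberg adjustment, 12 libraries against 12, time as a covariate). Over all 16582 genes tested, 44.4% were lower and 45% higher. The study's fold limit of 1.5 (0.58 on the log2 scale) was also passed by 37 of the lower and 6 of the higher members, against 24.9% and 27.1% of all genes. The median log2 difference was -2.23 over the members and 0.01 over all genes tested. The groups did not overlap for 37 lower and 7 higher members, where 29.5% and 34.0% of all genes tested did not overlap in these directions. Stage cannot be told apart from experiment, plating density and medium, and in bulk RNA fewer dividing cells cannot be told apart from less RNA per cell.

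The largest falls of single members were those of Cdc6, Ccnd1 and Mcm3. By role, the median log2 difference was lowest for the mitotic kinases and APC/C genes (-2.69), followed by the replication genes (-2.53). Cdc6 (chr11:98907801-98923940) ran from 49.3 to 59.7 CPM in non-stretched myoblasts (median 53.6) and from 3.55 to 5.80 CPM in differentiated cells (median 4.99). It differed by -3.50 on the log2 scale (SE 0.04, 11.3-fold, adjusted p = 1.81e-30), and the lowest myoblast library lay far above the highest differentiated one. Ccnd1 (chr7:144929931-144939925), cyclin D1, ran from 580.9 to 663.3 CPM (median 614.2) and from 53.7 to 60.4 CPM (median 58.7), a log2 difference of -3.42 (SE 0.02). Mcm3 (chr1:20802968-20820312), a subunit of the replicative helicase, ran from 169.2 to 193.1 CPM (median 182.2) and from 19.8 to 30.7 CPM (median 25.5), a log2 difference of -2.86 (SE 0.04). Neither gene's groups overlapped. All 9 replication genes were lower, from -1.71 for Pcna to -3.50 for Cdc6, and so were all 5 mitotic kinase and APC/C genes, from -2.44 for Cdc20 to -2.76 for Aurka. Ccna2, Ccnb1 and Ccnb2, the S and M phase cyclins, were lower by between -2.03 and -2.80 on the log2 scale. Mki67 and Top2a, common proliferation markers, differed by -2.40 and -2.43.

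The 7 members that were higher in differentiated cells include genes that hold the cycle back. Cdkn1a (chr17:29090976-29100727), which inhibits CDKs, ran from 118.0 to 142.9 CPM in myoblasts (median 131.6) and from 1453 to 1670 CPM in differentiated cells (median 1547), a log2 difference of 3.53 (SE 0.03, 11.6-fold). Rb1 (chr14:73183673-73325822), the retinoblastoma pocket protein, ran from 44.1 to 50.9 CPM (median 47.8) and from 186.8 to 220.9 CPM (median 210.5), a log2 difference of 2.11 (SE 0.03). Ccnd3 (chr17:47505051-47599691), cyclin D3, ran from 106.2 to 127.0 CPM (median 121.7) and from 465.9 to 561.7 CPM (median 514.6), a log2 difference of 2.07 (SE 0.03). None of these genes overlapped between the stages. The other higher members were Cdkn1c (1.91), Rbl2 (0.77) and Cdkn1b (0.18), which also restrain the cycle, and E2f2 (1.21), an activating E2F factor. Within families the direction was split: Ccnd3 rose while the other 4 G1 cyclins fell, E2f2 rose while the other 4 E2F factors fell, and Cdkn2c was the lone CDK inhibitor that was lower (-0.82). Cdk2 was the least changed member, at -0.08 (SE 0.02) with overlapping groups.

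Per kilobase of the longest coding transcript, the members with the highest levels differed in part between the stages. In myoblasts the highest levels were those of Rrm2 (216.6 CPM per kb), Cdk4 (181.8) and Pcna (175.3), and Cdkn1c was lowest at 0.96. In differentiated cells Cdkn1a had 747.5 and Ccnd3 243.9 CPM per kb, followed by Cdk4 (90.6), Rrm2 (61.2) and Pcna (54.9). The plot of stage differences shows each member by role.

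**Figure D1:**
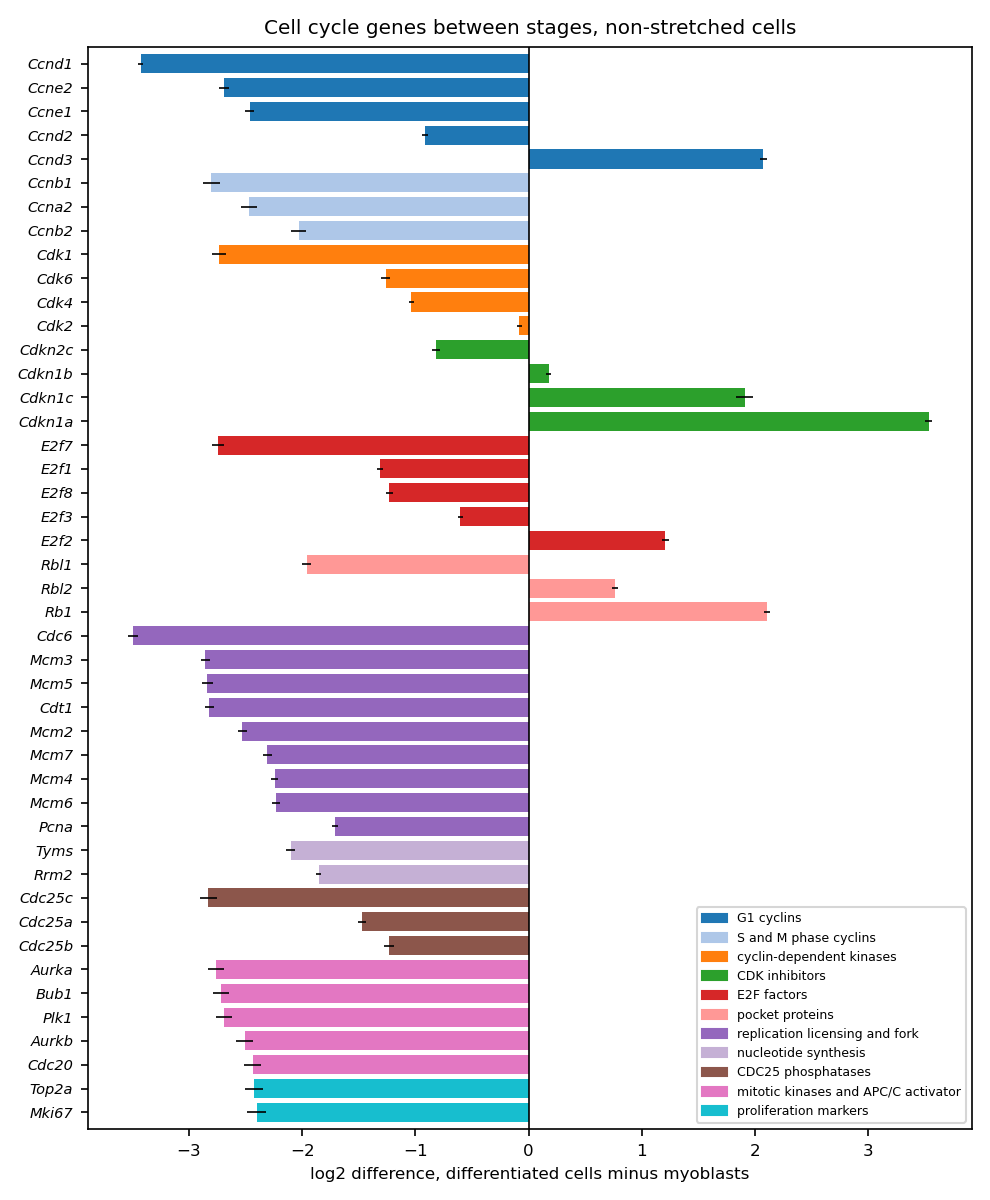
Log2 difference of each of the 45 members between non-stretched differentiated cells and myoblasts (x axis), grouped and coloured by role, with bars starting at 0 and black lines for the standard error (12 libraries a stage). Bars point left for 38 members, down to -3.50 for Cdc6, and right for 7, up to 3.53 for Cdkn1a.

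With stretching, the changes of the members were small at every time point: no member changed by 0.58 on the log2 scale, and the largest called change was 0.42. In myoblasts 1.25%, 1.71% and 2.17% of all genes tested passed the adjusted p-value and this limit at the successive time points, and in differentiated cells 0.27%, 1.63% and 2.04% did. The number of members called grew from 1 h to 3 h in both stages, as did the share of all genes tested. In myoblasts, 3 members were called at 1 h (5.92% of all genes tested), 21 at 3 h (31.9%) and 22 at 6 h (27.2%). In differentiated cells, 0 were called at 1 h (0.663% of all genes), 17 at 3 h (22.2%) and 9 at 6 h (22.3%). In each comparison with calls, all called members had the same direction in both experiments. The calls came from these same libraries, so this is no separate support. A change in one experiment could also lie near 0, as for Plk1 in myoblasts at 3 h (-0.16 and -0.008). Counted by libraries alone, the stretched and non-stretched groups did not overlap for 1 higher and 4 lower members in myoblasts at 1 h (5.32% and 8.03% of all genes tested), 16 and 3 at 3 h (17.1% and 13.7%), and 3 and 21 at 6 h (12.4% and 16.3%). In differentiated cells they did not overlap for 0 higher and 1 lower member at 1 h (2.46% and 3.91%), 11 and 2 at 3 h (12.5% and 13.5%), and 6 and 3 at 6 h (14.3% and 12.2%).

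**Figure D2:**
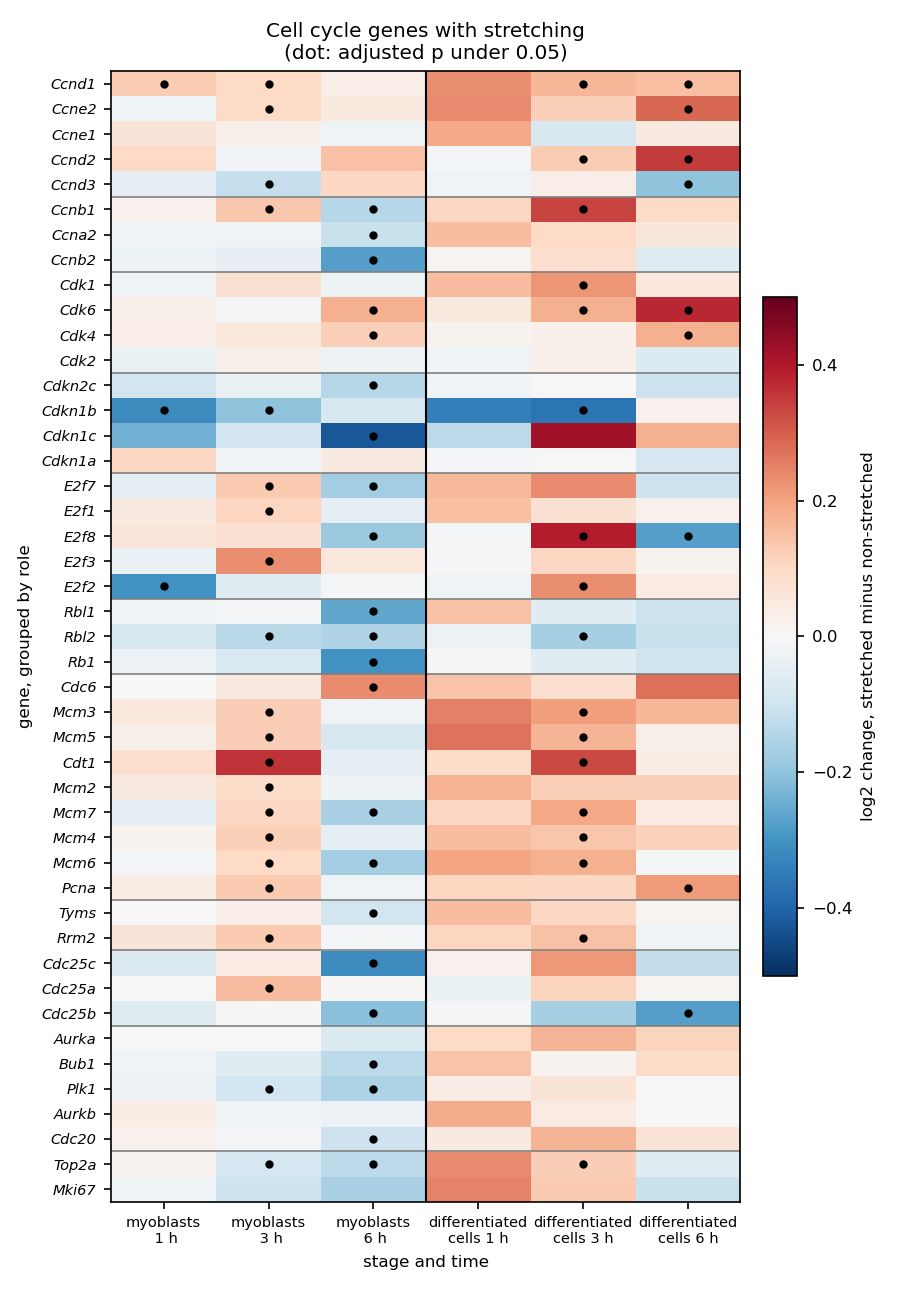
Log2 change with stretching (colour, red higher and blue lower in stretched cells) of the 45 members, grouped by role, in the 6 comparisons of 4 stretched with 4 non-stretched libraries, with a dot at adjusted p under 0.05. The myoblast columns change from mostly red dots at 3 h (16 higher, 5 lower) to mostly blue ones at 6 h (3 higher, 19 lower), and the differentiated column at 3 h holds 15 higher and 2 lower.

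After 1 h of stretching, myoblasts had 1 member upregulated (Ccnd1) and 2 downregulated (Cdkn1b and E2f2), where 1.67% of 14938 genes tested were upregulated and 4.24% downregulated. Cdkn1b (chr6:134920401-134925513), which inhibits cyclin-CDK complexes and restrains entry into S phase, had 53.1, 52.1, 59.4 and 53.7 CPM in non-stretched and 44.1, 44.8, 42.1 and 44.1 CPM in stretched cells. All stretched libraries lay below all non-stretched ones, a log2 change of -0.32 (SE 0.04, adjusted p = 0.00138, edgeR). E2f2 had 57.5, 60.0, 59.9 and 61.9 CPM in non-stretched and 50.8, 48.8, 44.6 and 50.3 CPM in stretched cells, again without overlap (log2 change -0.30, SE 0.04, adjusted p = 0.00204, edgeR). Ccnd1, which pairs with CDK4 and CDK6 in G1, had 611.9, 619.4, 588.6 and 626.1 CPM in non-stretched and 652.2, 649.3, 682.1 and 692.7 CPM in stretched cells. These groups did not overlap either, but the change was only 0.13 (SE 0.03, adjusted p = 0.0391, edgeR) and lost its call without any one of 6 of the 8 libraries (non-stretched replicates 7, 8 and 10 and stretched replicates 8, 9 and 10).

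After 3 h of stretching, myoblasts upregulated 16 members and downregulated 5, against 16% and 15.8% of 14813 genes tested. Of the 16, 8 were replication genes, and 8 of the 9 members with that role rose (Mcm2, Mcm3, Mcm4, Mcm5, Mcm6, Mcm7, Pcna and Cdt1), by between 0.09 and 0.36 on the log2 scale, while Cdc6 had 0.04. E2f1, E2f3 and E2f7 rose by 0.11, 0.23 and 0.13, Ccnd1, Ccne2 and Ccnb1 by 0.10, 0.10 and 0.13, Rrm2, a subunit of ribonucleotide reductase, by 0.13, and Cdc25a by 0.16. The downregulated members were Cdkn1b, Rbl2, Ccnd3, Plk1 and Top2a. The median log2 change was 0.03 over the members and -0.01 over all genes tested.

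Cdt1 (chr8:122568015-122573554), whose E2F letters are shown above, had 63.8, 64.4, 59.0 and 62.6 CPM in non-stretched myoblasts at 3 h and 84.0, 78.4, 86.1 and 75.0 CPM in stretched ones. The groups did not overlap, and the log2 change was 0.36 (SE 0.04, adjusted p = 3.23e-05, edgeR). E2f3, an activating E2F factor, had 57.4, 57.2, 54.8 and 55.6 CPM in non-stretched and 67.8, 68.0, 65.0 and 65.8 CPM in stretched cells. It was higher in every stretched library (log2 change 0.23, SE 0.03, adjusted p = 2.45e-05, edgeR). Cdkn1b had 60.0, 60.2, 59.3 and 57.1 CPM in non-stretched and 49.8, 52.7, 51.3 and 53.9 CPM in stretched cells, again lower in every stretched library (log2 change -0.20, SE 0.03, adjusted p = 0.000312, edgeR). Rbl2, a pocket protein that restrains E2F genes in resting cells, had 58.2, 57.7, 60.3 and 58.8 CPM against 54.3, 53.8, 54.1 and 52.6 CPM. Its groups did not overlap (log2 change -0.14, SE 0.03, adjusted p = 0.00122, edgeR).

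Muscle markers moved as well, though Myog and Myl1 were barely expressed in myoblasts (medians 0.97 and 1.17 CPM). The median log2 change of the muscle list was -0.50 at 3 h and already -0.44 at 1 h, where 0 of 8 genes were called. Of the 8 muscle list genes tested in myoblasts at 3 h, Myog and Myl1 were downregulated and passed both limits (log2 changes -0.82 and -0.74), and the summed list ran from 12.4 to 20.3 CPM in non-stretched and from 10.8 to 13.7 CPM in stretched libraries. Of the 6 undifferentiated markers, 3 were upregulated, and their sum ran from 370.6 to 433.6 CPM in non-stretched and from 451.3 to 512.7 CPM in stretched libraries. The part of these shifts in the members' changes was not tested.

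After 6 h of stretching, the direction in myoblasts was mostly downward: 19 members were downregulated and 3 upregulated, against 13.0% and 14.1% of 14938 genes tested. All 3 S and M phase cyclins fell (Ccnb2 by -0.28, Ccnb1 by -0.14 and Ccna2 by -0.11 on the log2 scale), as did all 3 pocket proteins (Rb1 by -0.30, Rbl1 by -0.26 and Rbl2 by -0.15). Bub1, Plk1 and Cdc20, which run the mitotic checkpoint, mitotic entry and exit, fell by between -0.10 and -0.16. Cdc25b, Cdc25c, E2f7, E2f8, Mcm6, Mcm7, Cdkn1c, Cdkn2c, Tyms and Top2a were also downregulated. The median log2 change was -0.07 over the members and 0.00 over all genes tested, and leaving out 1 library gave between 13 and 18 downregulated members. Beside these changes, Myog was downregulated (-0.54, SE 0.17) and 3 undifferentiated markers were upregulated and 1 downregulated, and the part of these shifts in the members' changes was not tested.

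Cdc25c, a phosphatase that activates CDK1, had 31.5, 31.4, 32.6 and 32.6 CPM in non-stretched myoblasts at 6 h and 22.7, 27.4, 23.4 and 28.3 CPM in stretched ones. Every stretched library was lower (log2 change -0.31, SE 0.06, adjusted p = 0.00349, edgeR). Cdkn1c, a CDK inhibitor that was barely expressed in myoblasts, had 1.84, 1.89, 2.06 and 1.81 CPM in non-stretched and 1.32, 1.35, 1.30 and 1.62 CPM in stretched cells (log2 change -0.42, SE 0.11, adjusted p = 0.0149, edgeR). Its groups did not overlap, and replicate 10 was the highest of the stretched libraries. The upregulated members were Cdc6, Cdk4 and Cdk6. Cdc6 had 52.1, 52.5, 53.5 and 51.5 CPM in non-stretched and 61.9, 56.6, 64.4 and 60.7 CPM in stretched cells, without overlap (log2 change 0.24, SE 0.04, adjusted p = 0.00186, edgeR). Cdk6 (chr5:3341485-3531008) had 280.6, 277.4, 279.3 and 272.5 CPM in non-stretched and 331.5, 292.4, 292.7 and 322.5 CPM in stretched cells. Its stretched libraries were spread more widely but all lay above the non-stretched ones (log2 change 0.18, SE 0.04, adjusted p = 0.0116, edgeR).

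Differentiated cells had no member called after 1 h of stretching, where 0.193% of 15538 genes tested were upregulated and 0.47% downregulated. At an unadjusted p-value under 0.05 there were 2 (Cdkn1b and E2f1), and DESeq2 called 1, Cdkn1b, as downregulated. Cdkn1b had 68.7, 64.5, 63.8 and 65.1 CPM in non-stretched and 43.3, 52.0, 50.8 and 60.7 CPM in stretched cells, the lowest in replicate 4. All stretched libraries lay below the non-stretched ones, with a log2 change of -0.34 (SE 0.09, adjusted p = 0.137, edgeR), or -0.27 (SE 0.06, adjusted p = 0.112, edgeR) without replicate 4.

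Replicate 4 stood apart from the other stretched libraries in the cell cycle genes. The mean log2 CPM of the 9 replication genes was 5.40 in it and between 4.90 and 5.02 in the other 3 libraries of the group, and that of 12 mitotic members was 5.70 against 4.80 to 5.11 in the other 3. The median log2 change of the members was 0.10 with it and 0.00 without it, and with it left out 0 members were still called. Without it the median changed sign for the S and M phase cyclins (0.10 to -0.17), the mitotic kinases and APC/C genes (0.10 to -0.14), the proliferation markers (0.24 to -0.03) and the CDKs (0.03 to -0.01).

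After 3 h of stretching, differentiated cells upregulated 15 members and downregulated 2, against 10.8% and 11.4% of 15513 genes tested. Replication genes again made up the largest share: Mcm3, Mcm4, Mcm5, Mcm6, Mcm7 and Cdt1 rose by between 0.14 and 0.33 on the log2 scale. E2f2 and E2f8 rose by 0.23 and 0.39, Ccnd1, Ccnd2 and Ccnb1 by 0.17, 0.13 and 0.34, Cdk1 and Cdk6 by 0.22 and 0.18, and Rrm2 and Top2a by 0.15 and 0.12. Cdkn1b and Rbl2 fell. The median log2 change was 0.12 over the members and 0.00 over all genes tested. The count of 15 depended on the fit: fitting all 24 differentiated libraries together left 3 upregulated, and leaving out stretched replicate 7 or 10 left 8.

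E2f8 (chr7:48866429-48881596), an E2F factor that represses E2F target genes, had 61.4, 61.9, 63.7 and 63.0 CPM in non-stretched differentiated cells at 3 h and 79.0, 74.6, 87.1 and 87.4 CPM in stretched ones. Every stretched library was higher (log2 change 0.39, SE 0.05, adjusted p = 0.000517, edgeR). Ccnb1 (chr13:100778650-100786570), cyclin B1, had 31.1, 34.3, 38.5 and 38.7 CPM in non-stretched and 43.1, 41.6, 43.3 and 52.6 CPM in stretched cells. The groups did not overlap, with replicate 10 well above the other stretched libraries (log2 change 0.34, SE 0.09, adjusted p = 0.0172, edgeR), and the call was lost with all 24 libraries in the fit (adjusted p = 0.183, edgeR). Cdkn1b had 64.3, 66.3, 67.3 and 64.8 CPM in non-stretched and 52.2, 53.6, 46.5 and 51.5 CPM in stretched cells, without overlap (log2 change -0.37, SE 0.04, adjusted p = 0.000379, edgeR). Rbl2 had 101.6, 103.8, 93.1 and 96.7 CPM against 87.8, 88.1, 90.5 and 85.7 CPM, and its groups did not overlap (log2 change -0.17, SE 0.04, adjusted p = 0.00809, edgeR).

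After 6 h of stretching, differentiated cells upregulated 6 members and downregulated 3, against 11.5% and 10.8% of 15433 genes tested, so the share of members called lay near that of all genes. The upregulated members were G1 genes and Pcna: Ccnd1 (0.15), Ccnd2 (0.35), Ccne2 (0.29), Cdk4 (0.18), Cdk6 (0.38) and Pcna (0.21). The downregulated ones were Ccnd3 (-0.20), E2f8 (-0.28) and Cdc25b (-0.27). No mitotic kinase, S and M phase cyclin or helicase subunit was called. Without stretched replicate 7 or 8 there were 3 upregulated members.

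Cdk6 had 123.7, 119.5, 96.3 and 114.7 CPM in non-stretched differentiated cells at 6 h and 134.0, 135.1, 173.3 and 147.9 CPM in stretched ones. The groups did not overlap, with stretched replicate 9 the highest and non-stretched replicate 9 the lowest (log2 change 0.38, SE 0.09, adjusted p = 0.0150, edgeR). Ccnd2 (chr6:127125162-127152193), cyclin D2, had 43.6, 42.5, 46.4 and 41.1 CPM in non-stretched and 50.7, 52.2, 58.8 and 59.9 CPM in stretched cells, without overlap (log2 change 0.35, SE 0.06, adjusted p = 0.00310, edgeR). E2f8 had 54.7, 53.2, 54.3 and 49.1 CPM in non-stretched and 41.7, 45.6, 41.8 and 45.6 CPM in stretched cells. It was now lower in every stretched library (log2 change -0.28, SE 0.05, adjusted p = 0.00284, edgeR). Cdc25b (chr2:131186949-131198497), a phosphatase that activates CDKs before mitosis, had 70.9, 71.7, 76.95 and 75.9 CPM against 56.6, 61.1, 61.1 and 65.9 CPM, again without overlap (log2 change -0.27, SE 0.05, adjusted p = 0.00383, edgeR). Beside these changes, the sum of the 6 undifferentiated markers ran from 262.1 to 278.5 CPM in non-stretched and from 244.3 to 266.4 CPM in stretched libraries, and 3 of the 6 were downregulated and 1 upregulated (Id3 changed by -0.60). Of the 10 muscle genes tested 1 was downregulated, with the sum between 15400 and 16380 CPM in non-stretched and between 14330 and 15740 CPM in stretched libraries. Of 3 endothelial, immune and epithelial genes tested 1 was downregulated, with the sum over the list of 7 between 12.4 and 14.8 CPM and between 9.74 and 12.9 CPM. Their part in the members' changes was not tested.

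**Figure D3:**
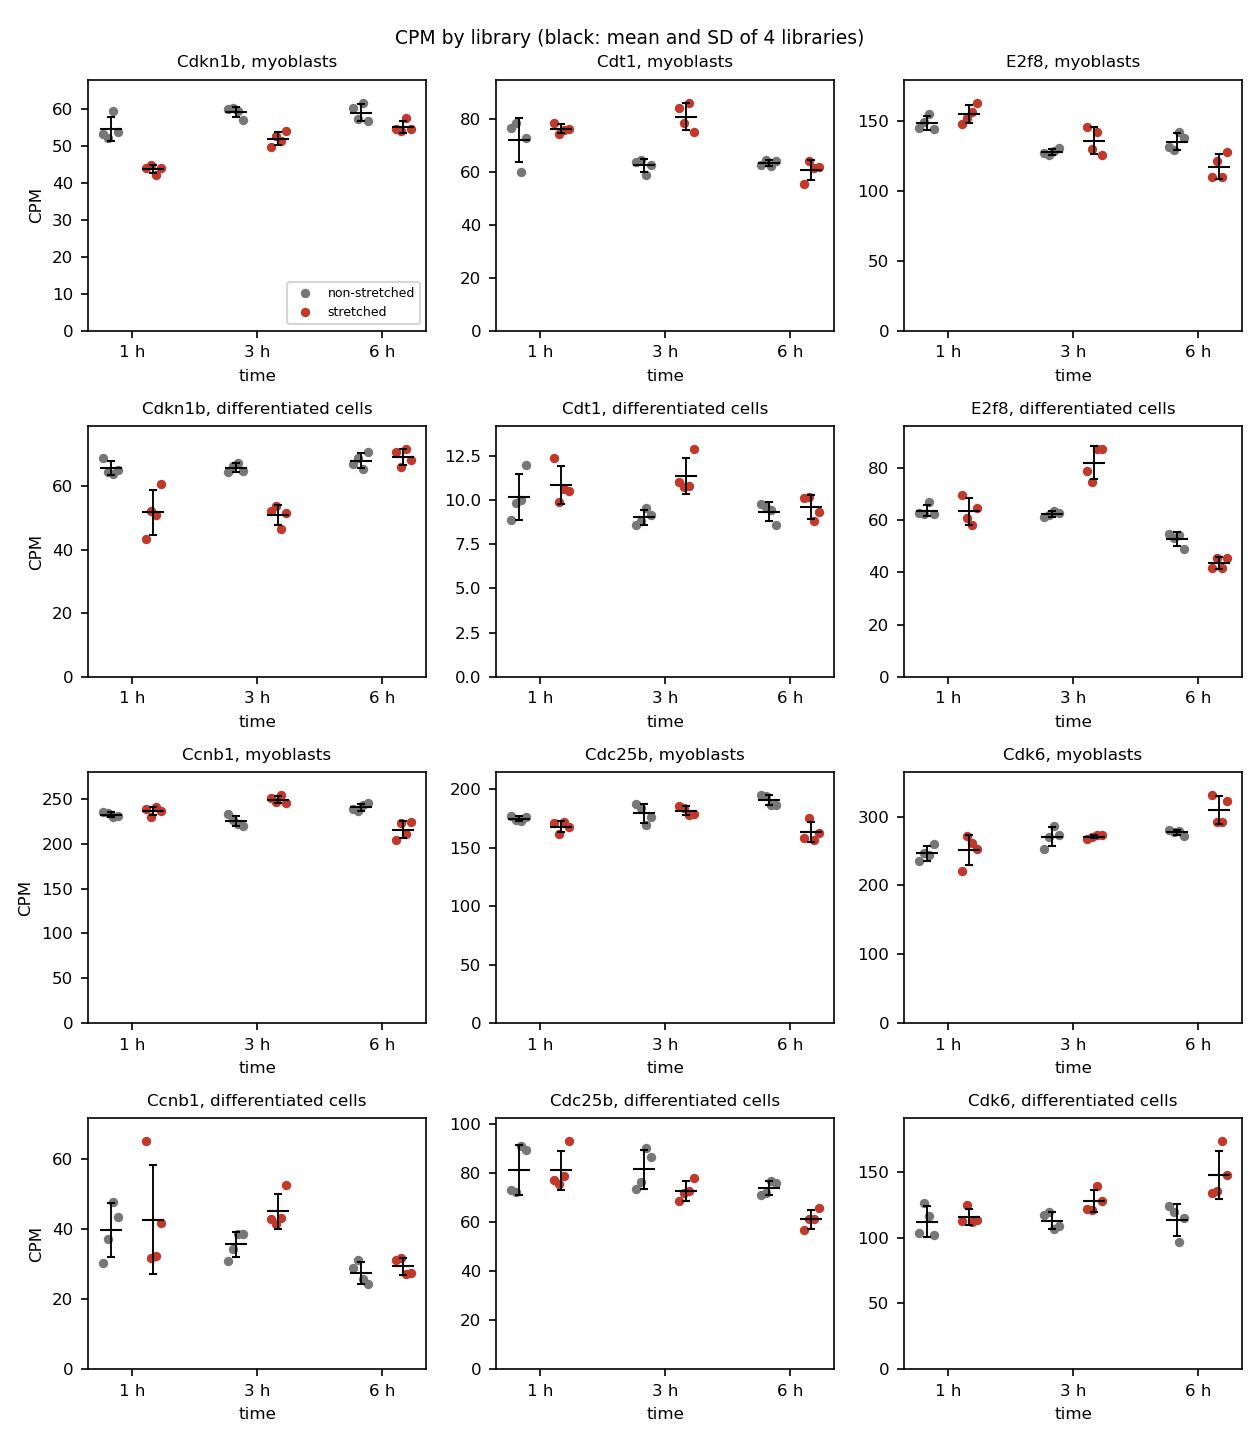
CPM (y axis, from 0) of 6 members by hours of culture with or without stretching (x axis) in myoblasts and differentiated cells, with a point per library (grey non-stretched, red stretched) and black marks for the mean and SD of 4 libraries. Cdkn1b is lower in all stretched libraries at 1 h and 3 h in both stages, Cdt1 is higher at 3 h in both, and E2f8 in differentiated cells is higher at 3 h and lower at 6 h.

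Some members were called in both stages at 3 h. Of the 16 members upregulated in myoblasts and the 15 upregulated in differentiated cells at 3 h, 9 were called in both: Ccnd1, Ccnb1, Mcm3, Mcm4, Mcm5, Mcm6, Mcm7, Cdt1 and Rrm2. Of the 14249 genes tested in both comparisons, 7.59% were upregulated in both and 8.02% downregulated in both. The overlap rests on the count of 15, which fell to 3 with all 24 libraries in the fit, where Ccnb1 lost its call, and to 8 with 1 library left out. Both downregulated members of differentiated cells, Cdkn1b and Rbl2, were also among the 5 of myoblasts. These comparisons have no library in common. Reads of some of these genes can be shared with near-identical copies: 27.7% of the 31-base stretches of Ccnb1, 26.8% of Mcm7, 25.5% of Cdc20, 23.3% of Pcna, 14.8% of Plk1 and 12% of Rrm2 also occur in other genes, so their counts are less certain. Across all 6 comparisons 39 of the 45 members were called at least once, as were 61.7% of the 14006 genes tested in every comparison, and Ccne1, Cdk2, Cdkn1a, Aurka, Aurkb and Mki67 were called in none.

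Whether the stretch response of a member differed between stages was tested directly. At the middle time, 3 h, 3 members responded more positively in differentiated cells than in myoblasts: E2f2 (difference of log2 changes 0.29, SE 0.04), E2f8 (0.31, SE 0.07) and Top2a (0.21, SE 0.05). Over all 16252 genes tested, 1.13% differed in this direction and 0.658% in the other, which held 0 members. E2f2 changed by 0.23 in differentiated cells and -0.06 in myoblasts, and E2f8 by 0.39 and 0.08. At 6 h, the response of Rb1 was higher in differentiated cells (0.20, SE 0.05) and that of Ccnd3 lower (-0.31, SE 0.08), against 2.39% and 2.79% of 16254 genes tested. At 1 h, 0 members differed by edgeR and by DESeq2, 1 had an unadjusted p-value under 0.05, and 0.0% of 16299 genes were called. With 1 library left out, the count at 3 h ran from 1 to 3 and that at 6 h from 0 to 6.

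The responses also differed between times. In myoblasts, 20 members responded differently at 6 h than at 3 h, 18 of them more negatively, where 12.2% of 15684 genes did so in that direction. These included 6 replication genes with helicase or clamp roles (Mcm3, Mcm4, Mcm5, Mcm6, Mcm7 and Pcna), with differences of log2 changes between -0.14 and -0.26, Cdt1 (-0.40, SE 0.08), Cdc25c (-0.35, SE 0.06), E2f7 (-0.30, SE 0.05) and Ccnb1 (-0.27, SE 0.04). Ccnd3 (0.23, SE 0.06) and Cdc6 (0.20, SE 0.06) went the other way, against 14.3% of all genes. Ccnb1, E2f7, Mcm6 and Mcm7 were called as upregulated at 3 h and as downregulated at 6 h, as were 1.86% of the 14643 genes tested at both times.

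Between 6 h and 1 h in myoblasts, 12 members responded differently, 9 more negatively and 3 more positively, against 9.42% and 11.6% of all genes. The 3 were E2f2 (0.29), Cdkn1b (0.24) and Cdc6 (0.24). Between 3 h and 1 h, 4 responded more positively (E2f2, E2f3, E2f7 and Cdt1), by between 0.17 and 0.27, against 5.37% of all genes, and 0 more negatively, against 5.54%.

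In differentiated cells, 2, 3 and 3 members differed between 3 h and 1 h, 6 h and 1 h, and 6 h and 3 h, and 4, 7 and 7 with experiment as a covariate. E2f8 gave the largest difference: its response was 0.67 lower at 6 h than at 3 h (SE 0.08, adjusted p = 2.37e-05, edgeR). Cdkn1b responded 0.39 higher at 6 h than at 3 h (SE 0.09, adjusted p = 0.00623, edgeR) and 0.36 higher than at 1 h (SE 0.09, adjusted p = 0.0113, edgeR). In the 6 h libraries Cdkn1b had 66.9, 68.7, 65.4 and 70.7 CPM in non-stretched and 70.8, 66.0, 71.6 and 68.1 CPM in stretched differentiated cells, so the groups overlapped. With E2f2, 3 members differed between 6 h and 3 h, against 12% of 16266 genes in either direction. Ccnd2, Cdkn1b and E2f8 differed between 6 h and 1 h (11.9% of all genes), and E2f2 and E2f8 between 3 h and 1 h (5.15%). The counts that involve 1 h ran from 2 to 4 with 1 library left out, replicate 4 included.

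**Figure D4:**
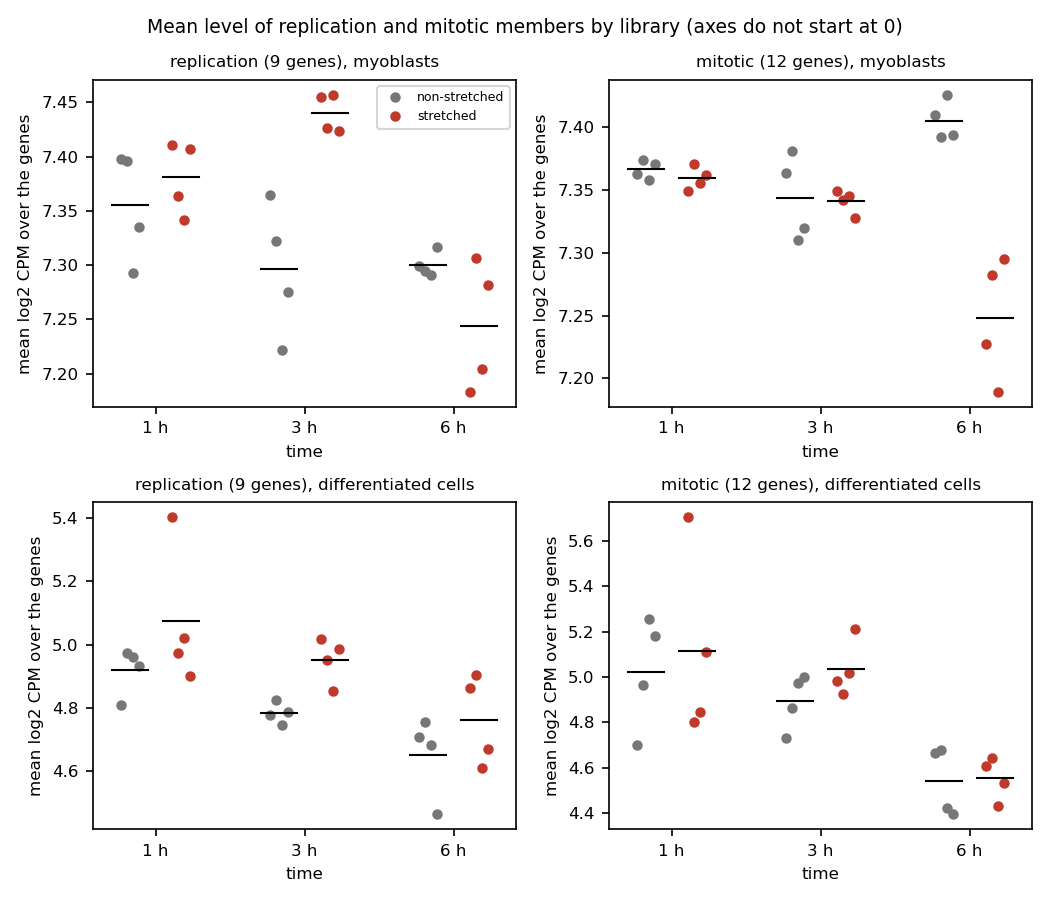
Mean log2 CPM over 9 replication members (left) and 12 mitotic members (right) in each library (y axes do not start at 0), by time in myoblasts (top) and differentiated cells (bottom), with grey points for non-stretched and red for stretched libraries and a line at the mean of 4. In myoblasts the replication mean at 3 h runs from 7.22 to 7.37 without and from 7.42 to 7.46 with stretching, and the mitotic mean at 6 h from 7.39 to 7.43 without and from 7.19 to 7.30 with it.

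In myoblasts, the role means of stretched and non-stretched libraries did not overlap for replication members at 3 h and for mitotic members at 6 h. The 12 mitotic members are the S and M phase cyclins, the mitotic kinases, Bub1, Cdc20, the proliferation markers, Cdk1 and Cdc25c, a set put together after the values were known, so no test was run on it. Its mean log2 CPM lay between 7.33 and 7.35 in stretched myoblasts at 3 h, within the range of 7.31 to 7.38 of the non-stretched ones, and below every non-stretched library at 6 h. The mean of the replication members lay above every non-stretched library at 3 h and overlapped at 6 h (7.18 to 7.31 against 7.29 to 7.32). In differentiated cells the replication mean at 3 h ran from 4.85 to 5.02 with stretching and from 4.75 to 4.83 without.

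The letters in the promoter windows can be set beside these calls as a description. Shares of all genes up- and downregulated were 16% and 15.8% in myoblasts at 3 h and 14.1% and 13.0% at 6 h. In differentiated cells at 3 h they were 10.8% and 11.4%. Cdk1, E2f2, E2f3 and Mcm7 hold both E2F and CHR letters and are among the 13 below. For E2f2 the letters of each kind lie in different windows. Of the 13 members with E2F letters, 8 were upregulated and 0 downregulated in myoblasts at 3 h (median log2 change 0.11), and 7 and 0 in differentiated cells at 3 h (median 0.18). In myoblasts at 6 h, 1 of these 13 was upregulated and 4 were downregulated (median -0.025). Of the 11 members with CHR letters and no E2F letters, 1 was upregulated and 3 were downregulated in myoblasts at 3 h (median -0.04), and 0 and 8 at 6 h (median -0.15). In differentiated cells at 3 h, 2 of these 11 were upregulated and 1 was downregulated (median 0.12). Counting all 15 members with CHR letters, 3 were upregulated and 3 downregulated in myoblasts at 3 h, and 0 and 9 at 6 h. In differentiated cells at 3 h this wider set had 5 upregulated and 1 downregulated. Of the 9 with E2F letters and no CHR letters, 3 were downregulated and 1 was upregulated in myoblasts at 6 h (median -0.05). At 3 h, 6 of these 9 were upregulated and 0 downregulated in myoblasts, and 4 and 0 in differentiated cells. Of the 12 members with neither, 4 were upregulated and 2 downregulated in myoblasts at 3 h (median 0.03), and 2 and 3 at 6 h (median -0.02). In differentiated cells at 3 h, 3 of these 12 were upregulated and 1 was downregulated (median 0.05).

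Other genes of the same processes, from lists without the members, were counted in the same way. The shares of all genes up- and downregulated were 16% and 15.8% in myoblasts at 3 h, 14.1% and 13.0% in myoblasts at 6 h, and 10.8% and 11.4% in differentiated cells at 3 h. Of 43 further replication genes, 12 were upregulated and 4 downregulated in myoblasts at 3 h, 2 and 27 at 6 h, and 8 and 3 in differentiated cells at 3 h. Of 50 further mitosis genes tested, 6 were upregulated and 11 downregulated in myoblasts at 3 h, and 1 and 36 at 6 h, with a median log2 change of -0.16 at 6 h. In differentiated cells 5 of these 50 were upregulated and 0 downregulated at 3 h. All 43 and all 50 were lower in differentiated cells than in myoblasts (medians -2.04 and -2.41). Of 25 further G1 and checkpoint regulators tested, 1 was upregulated and 8 were downregulated in myoblasts at 6 h. Of 18 p53 target genes, 4 were upregulated and 2 downregulated there, and Plk2 (0.83) passed both limits in differentiated cells at 1 h.

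The members also moved with time in cells that were not stretched. Between 1 h and 6 h, 12 members fell in non-stretched differentiated cells and 0 rose, against 0.809% and 0.411% of 15813 genes tested. They were Ccna2, Cdk1, E2f7, E2f8, Rbl1, Mcm2, Mcm3, Mcm5, Mcm6, Mcm7, Aurkb and Bub1, with log2 differences from -0.27 for E2f8 to -0.58 for Aurkb. Aurkb, a mitotic kinase, had 14.6, 17.6, 19.6 and 18.9 CPM at 1 h, 13.2, 15.9, 15.9 and 15.6 CPM at 3 h and 13.0, 14.0, 10.6 and 9.90 CPM at 6 h. The 1 h and 6 h libraries did not overlap. The fall was larger in the experiment of replicates 9 and 10. There the mean log2 CPM of the 12 mitotic members went from 5.253 and 5.179 at 1 h to 4.422 and 4.395 at 6 h. In replicates 7 and 8 it went from 4.699 and 4.964 to 4.666 and 4.680. Single libraries moved this count, to 0 without 1 h replicate 9 or 10, 4 without replicate 8, 21 without replicate 7 and 6 without 6 h replicate 10. In non-stretched myoblasts, Cdk6 (0.18, SE 0.04) and Cdc25b (0.13, SE 0.03) rose and 0 members fell, against 0.999% and 0.986% of 15213 genes, and 0 to 9 members were called with 1 library left out. E2f8 was among the members that fell over time without stretching, and its change with stretching at 6 h was measured against non-stretched cells of the same time.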

How the data were processed

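RNA of stretched and non-stretched C2C12 cells was sequenced in 48 libraries. The authors deposited estimated counts per gene, 1 table per stage, and the submitters' processing notes name STAR, Salmon, DESeq2 and mm10. The tables held 0 columns of samples outside the series. The estimated counts were used as deposited. Genes with low counts were removed by filterByExpr, and libraries were scaled by TMM. Stretched and non-stretched libraries of each stage and time (4 against 4) were set against each other by the quasi-likelihood test of edgeR 4.0.16 (R 4.3.3). Benjamini-Hochberg adjustment ran over all genes tested. A prior count of 1 was used for log2 CPM, and the tests kept edgeR's default. The stage comparison used the 12 non-stretched libraries of each stage with time as a covariate. Differences of the stretch response between times and between stages were interaction terms. CPM came from TMM scaling over all 48 libraries.

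The members and gene lists were chosen with earlier results of these data known, and the set of 12 mitotic members was put together with values known. Library values are given for called members with the 2 largest rises and 2 largest falls in a stretch comparison. Ranges and medians are given for the 3 largest rises and falls between stages. Library values are also given for Cdkn1b in differentiated cells at 1 h and 6 h, where it was not called, and for Aurkb over time without stretching. Changes with stretching of single genes outside the members are given where they passed both limits. An exception is Myog in myoblasts at 6 h, which did not reach the fold limit.

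Library totals of 48447318 to 77080730 set the counting precision, and p-values cover the spread between libraries. Alternatives were DESeq2 1.42.0, RLE scaling, counts summed per experiment for the stages, no filter on low counts, experiment as a covariate, a replicate block, all 24 libraries of a stage, and each library left out. Equal replicate numbers did not pair the libraries. The method was tested on simulated data for myoblasts at 3 h (14676 genes): 56% of 100 changes of 0.2 and 86% of 100 changes of 0.4 on the log2 scale were called, with 10 false calls. The simulation changed only these genes and drew the libraries independently. In the data 31.9% of genes were called at that time and libraries fall into experiments, so these rates need not hold there. Gene positions are those of mm10, and promoter windows those of RefSeq.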

Additional observations from a re-analysis of the deposited data

Results flagged for a closer look

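In 38 groups of 4 libraries of the members described by library, 2 held a library far from the others, where chance gives about 1 in 20 groups. Cdkn1c had 1.62 CPM in stretched myoblasts at 6 h, replicate 10, above the other 3 stretched libraries. Ccnb1 had 52.6 CPM in stretched differentiated cells at 3 h, replicate 10, also above the other 3.

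The response to stretching differed between times by an interaction test. In myoblasts 4 members differed between 3 h and 1 h, among them E2f2 (difference of log2 changes 0.24), E2f3 (0.26) and Cdt1 (0.27). Between 6 h and 1 h 12 members differed, among them Cdkn1b (0.24), E2f2 (0.29), Cdc6 (0.24) and Cdc25c (-0.25). Between 6 h and 3 h 20 members differed, among them E2f3 (-0.18), Cdc6 (0.20), Cdt1 (-0.40) and Cdc25c (-0.35). In differentiated cells 2 members differed between 3 h and 1 h, including E2f8 (0.40). Between 6 h and 1 h 3 differed: Ccnd2 (0.35), Cdkn1b (0.36) and E2f8 (-0.27). Between 6 h and 3 h 3 differed, including Cdkn1b (0.39) and E2f8 (-0.67). The contrasts with 6 h share libraries with one another.

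The response also differed between stages, for 3 members at 3 h, including E2f2 (0.29) and E2f8 (0.31), and for 2 members at 6 h.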

How the results depend on the processing

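None of the changes of the members given by library changed sign under the alternatives run on them, while 4 role medians of differentiated cells at 1 h changed sign without stretched replicate 4. The stage counts stayed at 7 higher and 38 lower with 1 library left out. With no filter on low counts, 0 members were upregulated in myoblasts at 1 h (1 in the fit reported) and 4 differed between stages at 6 h (2). DESeq2 gave 1 downregulated member in differentiated cells at 1 h (0), 5 that differed between stages at 6 h, and 5 (2) and 23 (12) that differed over time without stretching in myoblasts and differentiated cells. Fitting all 24 libraries of a stage gave 1 downregulated member in differentiated cells at 1 h and 3 upregulated at 3 h (15). With experiment as a covariate, 4 (2), 7 (3) and 7 (3) members of differentiated cells differed between 3 h and 1 h, 6 h and 1 h, and 6 h and 3 h, 6 differed between stages at 6 h, and 6 and 24 differed over time without stretching. The cause of these moves was not tested.

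Equal replicate numbers did not pair the libraries: 1 of 23 pairs had a correlation over 0.1 (range -0.066 to 0.105). With the replicate block, 0 members were upregulated in myoblasts at 1 h, 4, 6 and 6 members of differentiated cells differed between the times in the order above, and 9 and 19 differed over time without stretching. The block moved no other count by over 1.5 times. Under it the call of Cdk6 in differentiated cells at 6 h was lost (adjusted p = 0.0572, edgeR).

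With 1 library left out, upregulated and downregulated members ran from 0 to 1 and 2 to 2 in myoblasts at 1 h, 14 to 18 and 3 to 5 at 3 h, and 3 to 4 and 13 to 18 at 6 h. In differentiated cells they ran from 0 to 0 and 0 to 1 at 1 h (1 without stretched replicate 9), 8 to 15 and 2 to 3 at 3 h, and 3 to 6 and 2 to 3 at 6 h. At 3 h, 3 were downregulated in myoblasts without non-stretched replicate 8 or stretched replicate 8 or 9, and 9 were upregulated in differentiated cells without non-stretched replicate 7, 9 or 10. Members that differed between times ran from 3 to 7, 10 to 15 and 18 to 27 in myoblasts (7 between 3 h and 1 h without non-stretched 3 h replicate 7) and from 2 to 2, 2 to 4 and 2 to 3 in differentiated cells. Those that differed between stages ran from 0 to 0, 1 to 3 and 0 to 6 at 1 h, 3 h and 6 h, with 1 at 3 h without non-stretched myoblast replicate 9 or 10, stretched myoblast replicate 8 or 10, non-stretched differentiated replicate 8 or stretched differentiated replicate 10. At 6 h there were 0 without non-stretched myoblast replicate 9, 4 without stretched myoblast replicate 10, 6 without stretched differentiated replicate 9, and 1 without non-stretched myoblast replicate 7 or 10, stretched myoblast replicate 7, 8 or 9, non-stretched differentiated replicate 8 or stretched differentiated replicate 10. Over time without stretching they ran from 0 to 9 in myoblasts (9 without 1 h replicate 9, 1 without 1 h replicate 10, and 0 without 1 h replicate 7 or 8, 3 h replicate 8 or 10, or 6 h replicate 7, 8 or 10) and from 0 to 21 in differentiated cells (21 without 1 h replicate 7).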
